A study of Mus musculus with 6 samples.

Results

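Intergenic H3K27ac peaks that lay more than 10 kb and at most 50 kb from the nearest transcription start site (TSS) were examined in mouse embryonic stem cells (mESCs). They were selected on their own positions in the list of peaks of control cells. A peak was taken when it was on an autosome, was under 10000 bp wide, overlapped no protein-coding or lincRNA gene, and had its nearest edge within these distances of a TSS of any transcript of such a gene. The rule took 2578 of the 22973 control peaks, which was 12.3% (95% Wilson interval 11.9 to 12.8) of the 20922 autosomal peaks under 10000 bp. Of the others, 10141 overlapped a promoter (within 1 kb of a TSS), 5503 lay elsewhere inside a gene, 1377 were intergenic at 1 to 10 kb and 1323 were intergenic beyond 50 kb.

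Chromatin immunoprecipitation and sequencing (ChIP-seq) for H3K27ac was done in 6 samples. Control cells received DMSO (2 samples), and the others were exposed for 120 min to 100 nM NVP-2, an inhibitor of the elongation kinase CDK9 (2 samples), or to 800 nM actinomycin D (ActD), which blocks transcription (2 samples). All were E14 mESCs of the E14Tg2A Rosa26-Cre Oct4-IRES-Puro line, a single line kept in N2B27 medium with LIF, PD0325901 and CT-99021, and chromatin of human HEK293T cells was added to each sample as a spike-in. Only the list of control peaks, pooled over both control samples, was analysed here, so each value below describes 1 list, without replicate error, without a treated sample and without a measure of signal height. Its sequencing depth cannot be read from it. The intervals given cover counting error only, and neighbouring peaks are not independent.

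H3K27ac is an acetyl mark on lysine 27 of histone H3, written by the acetyltransferases CBP and p300. It is found at active promoters and at active enhancers, which are stretches of regulatory DNA that can act on genes from a distance. In mESCs such elements are bound by pluripotency factors, among them OCT4 with SOX2, the zinc finger proteins of the KLF family, the nuclear receptor ESRRB, TFCP2L1, and STAT3, which acts downstream of LIF. A peak away from any TSS is therefore often read as a candidate enhancer, but the list holds no test of enhancer activity.

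As a check of the labelled cell type, promoters were looked up in the same list, a promoter being called marked when any control peak came within 1 kb of a TSS of the gene. Of 12 autosomal naive pluripotency factors 10 had a marked promoter, and of 25 core and general pluripotency genes 19 did. Of 12 formative and primed genes 8 had one, so the check does not tell naive from primed cells. Among 23 lineage-specifying genes 7 had one, and among 1087 olfactory receptor genes 3 did. Over all 20807 autosomal protein-coding genes the share was 53.2%.

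The sequences below show a motif as it stands inside named peaks. The 8-base ESRRB motif, CAAGGTCA, searched over whole peaks, had a match in peaks next to 7 pluripotency genes. Of the naive list 4 genes and of the core and general list 6 were nearest to such peaks, with 7 peaks each. Over the whole peak 25.6% (23.9 to 27.3) of all 2578 peaks held a match, a share by peak and not by gene. The motif was chosen for display after its matches had been seen. None of the peaks next to pluripotency genes held an octamer or an OCT-SOX composite match. Capitals mark the match, and the first match along the chromosome within the peak is printed for each gene. Coordinates are GRCm38 (mm10), the sequence is from the RefSeq GRCm38 assembly, and each is written 5′ to 3′ on the strand that reads as the motif.
Dppa3, chr6:122644048-122644145, minus strand: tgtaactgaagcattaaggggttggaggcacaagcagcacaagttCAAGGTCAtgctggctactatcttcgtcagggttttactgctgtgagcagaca
Jarid2, chr13:44671307-44671404, minus strand: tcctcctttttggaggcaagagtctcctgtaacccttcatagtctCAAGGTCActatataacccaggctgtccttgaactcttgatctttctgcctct
Klf4, chr4:55515830-55515927, plus strand: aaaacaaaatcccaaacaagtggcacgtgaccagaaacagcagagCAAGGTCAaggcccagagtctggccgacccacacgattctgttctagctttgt
Nr5a2, chr1:136973211-136973308, minus strand: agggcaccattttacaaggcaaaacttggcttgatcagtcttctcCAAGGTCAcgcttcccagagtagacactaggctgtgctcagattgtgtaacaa
Tet2, chr3:133590971-133591068, minus strand: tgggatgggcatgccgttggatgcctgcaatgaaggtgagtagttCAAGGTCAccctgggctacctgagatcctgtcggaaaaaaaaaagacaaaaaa
Tfap2c, chr2:172566854-172566951, plus strand: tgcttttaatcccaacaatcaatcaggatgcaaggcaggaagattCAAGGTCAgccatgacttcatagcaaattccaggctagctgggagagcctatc
Zfp42, chr8:43352408-43352505, plus strand: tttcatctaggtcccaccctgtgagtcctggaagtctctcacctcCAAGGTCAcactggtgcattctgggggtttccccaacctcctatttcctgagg
The matches next to Klf4, Nr5a2 and Tfap2c lay outside repeat-masked sequence, and those next to Dppa3, Jarid2, Tet2 and Zfp42 lay inside it. The Nr5a2 match was 106 bp from the midpoint of its peak, the Tfap2c match 355 bp, the Klf4 match 428 bp and the Dppa3 match 503 bp. The Tet2 match was 1256 bp from it, the Zfp42 match 3149 bp and the Jarid2 match 4822 bp. Of these printed matches only that next to Nr5a2 lay in the central 500 bp, the stretch used for the motif shares below.

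The OCT-SOX composite, searched for as TTGT, any base, ATG, any base and AAA, is the joint site of OCT4 and SOX2. It had a match in the central 500 bp of 12 of the 2578 peaks. The 4 of these that came first in the list are printed in the same way, chosen after the matches were known, with the composite in capitals.
Dynlt1c, chr17:6571671-6571772, plus strand: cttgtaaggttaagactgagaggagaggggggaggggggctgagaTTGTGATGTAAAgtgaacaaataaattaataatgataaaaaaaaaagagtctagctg
Lrrc8d, chr5:105683493-105683594, minus strand: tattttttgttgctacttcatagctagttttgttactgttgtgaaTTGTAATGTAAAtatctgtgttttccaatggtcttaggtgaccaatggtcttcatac
Nxph3, chr11:95532788-95532889, plus strand: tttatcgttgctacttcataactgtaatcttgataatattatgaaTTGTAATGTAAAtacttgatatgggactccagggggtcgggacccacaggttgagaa
Vps8, chr16:21391751-21391852, plus strand: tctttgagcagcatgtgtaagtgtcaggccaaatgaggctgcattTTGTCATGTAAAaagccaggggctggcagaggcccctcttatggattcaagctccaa
All of these 4 matches lay in repeat-masked sequence. Their peaks were nearest to Dynlt1c at 29.0 kb, Lrrc8d at 13.9 kb, Nxph3 at 17.1 kb and Vps8 at 30.2 kb.

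The peaks had a median width of 1964.5 bp, with quartiles at 1251 and 3640.5 bp, and ranged from 82 to 9980 bp. The median distance to the nearest TSS was 21.7 kb, with quartiles at 14.9 and 31.7 kb. Both values follow in part from the rule and are given as a description. The peaks just inside the lower distance limit were nearest to Htr5a (10005 bp) and Gm10655 (10006 bp), and those just outside it to Scgn (9986 bp) and Tkt (9969 bp). At the upper limit the values inside were 49991 bp (5330413P13Rik) and 49938 bp (Tiparp), and outside 50007 bp (Map3k7cl) and 50029 bp (Reep3). The widest peaks inside the width limit were those near Anapc10 (9980 bp) and Pif1 (9959 bp), and the narrowest outside it those near Gm38246 (10003 bp) and Klrb1c (10033 bp). The width limit left out 154 peaks that met every other condition.

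The 5 widest peaks were nearest to Anapc10, a subunit of the anaphase-promoting complex, Pif1, a DNA helicase, the lincRNA gene Gm27253, Utp6 and Zfp532. All 5 of these genes had a marked promoter, as did the nearest gene of 62.0% of all the peaks. The 5 peaks that stood first in the list were nearest to P4ha2, a subunit of prolyl 4-hydroxylase, Nkain1, the lincRNA gene 4930511J24Rik, Psme4, a proteasome activator, and Ptma. Of these 5 genes only 4930511J24Rik had no marked promoter. The peak near P4ha2 was 1034 bp wide, against 7487 to 9341 bp for the other 4. What orders the list is not stated in the sources used here, but position went with width: the median width was 4411 bp in the first 645 of the peaks in list order and 1099.5 bp in the last 644.

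In steps of 10 kb, intergenic sequence at this distance held fewer peaks per Mb the farther it lay from a TSS. Over all 4 steps of 10 kb, 409 Mb of autosomal sequence could have held such a peak, and it held 6.31 per Mb. Between 10 and 20 kb the density was 7.60 peaks per Mb, between 20 and 30 kb 6.39, between 30 and 40 kb 5.32, and between 40 and 50 kb 4.42. It was 7.58 per Mb at 1 to 10 kb and 1.95 per Mb beyond 50 kb. The peaks covered 1.73% of the eligible sequence, against 0.511% for the intergenic peaks beyond 50 kb. The densities are a description of the distances that chose the peaks, and no test was run.

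**Figure D1:**
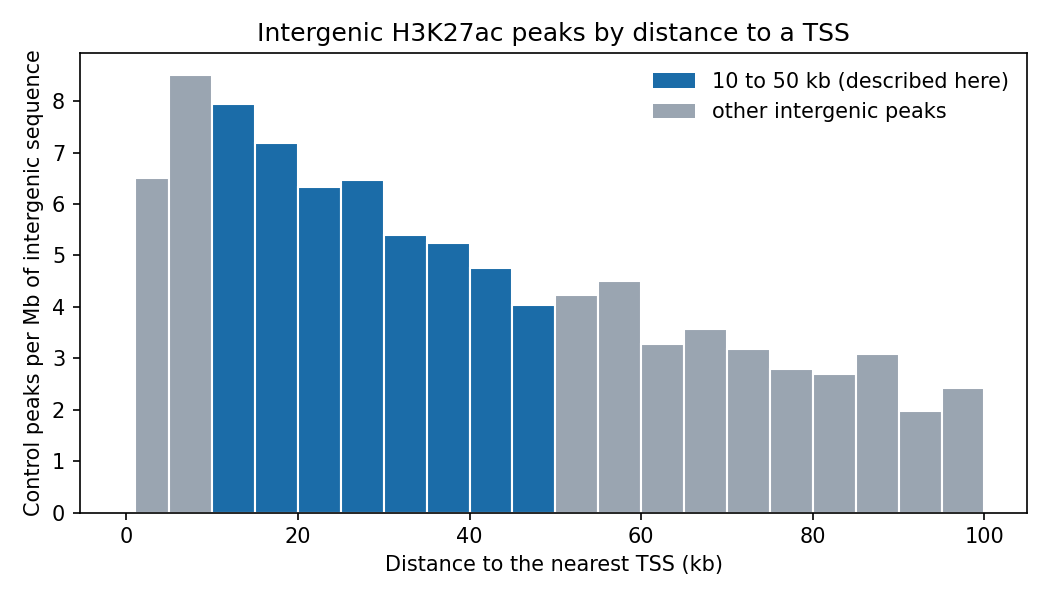
Control H3K27ac peaks per Mb of intergenic sequence (vertical axis) in steps of 5 kb of distance to the nearest TSS (horizontal axis, the first bar starting at 1 kb), with the peaks described here in blue and other intergenic peaks in grey. The blue bars go from 7.94 per Mb at 10 to 15 kb to 4.04 per Mb at 45 to 50 kb. They do not fall at each step, with 6.33 at 20 to 25 kb and 6.47 at 25 to 30 kb.

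Autosomes differed in how densely they held these peaks. Chromosome 11 had 10.3 per eligible Mb (189 peaks in 18.3 Mb), followed by chromosome 16 with 8.35 and chromosome 19 with 8.07. The lowest densities were on chromosome 3 with 4.50 per Mb (121 peaks in 26.9 Mb), chromosome 14 with 4.62 and chromosome 7 with 4.90. The median over the 19 autosomes was 6.31.

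The gene nearest to such a peak often had H3K27ac at its own promoter. This was so for 1598 of the 2578 peaks, or 62.0% (60.1 to 63.8). The share was 60.1% (57.4 to 62.6) for intergenic peaks at 1 to 10 kb and 43.9% (41.3 to 46.6) beyond 50 kb. Since some stretches of the genome lie next to marked genes whether or not they hold a peak, the same share was taken over 500-bp windows outside peaks that met the same distance rule. There the nearest gene was marked for 30.8% of the windows at 10 to 50 kb, for 33.4% at 1 to 10 kb and for 21.8% beyond 50 kb. The interval for the peaks thus lay above the window share at each distance. The list keeps only peaks near ATAC-seq summits, while the windows were not restricted to open chromatin, and the part of this in the difference was not tested.

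**Figure D2:**
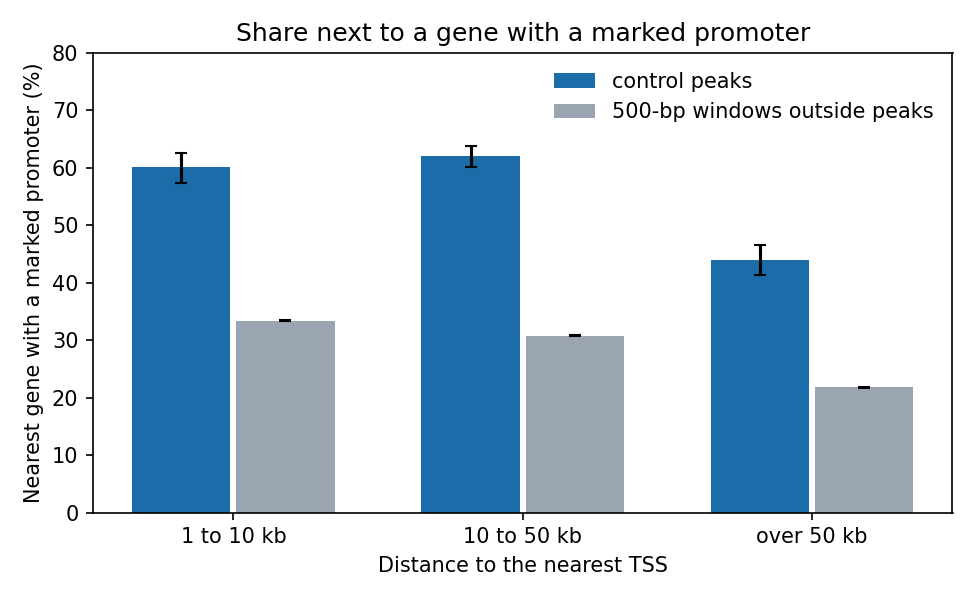
Share of control peaks (blue) and of 500-bp windows outside peaks (grey) whose nearest gene has a marked promoter, in percent, for 3 ranges of distance to the nearest TSS; bars give the share and error bars the 95% Wilson interval. At 10 to 50 kb the peaks stand at 62.0% and the windows at 30.8%.

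Within the range, the share of peaks next to a marked gene was 64.8% (62.0 to 67.5) at 10 to 20 kb, 60.8% (57.1 to 64.3) at 20 to 30 kb, 59.6% (55.0 to 64.1) at 30 to 40 kb and 57.1% (51.4 to 62.7) at 40 to 50 kb. The windows went from 32.7% to 27.9% over the same steps. Neighbouring steps had overlapping intervals.

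For 1847 peaks the nearest TSS belonged to a protein-coding gene and for 731, or 28.4%, to a lincRNA gene, a long transcript without a coding frame. The nearest promoter was marked in 73.9% (71.9 to 75.9) of the first and 31.9% (28.6 to 35.3) of the second. Counted by gene, the peaks were nearest to 2045 genes, of which 59.4% (57.2 to 61.5) had a marked promoter, against a background of 46.1% of all 26016 autosomal genes. For protein-coding genes the shares were 71.3% and 53.2%, and for lincRNA genes 28.6% and 17.5%. Genes with more such peaks were more often marked. The share was 56.4% (54.0 to 58.8) for the 1620 genes with 1 peak, 69.3% (64.2 to 74.0) for the 339 genes with 2 and 75.6% (65.5 to 83.4) for the 86 genes with 3 or more. The intervals of the last 2 overlapped.

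Genes on both sides of a peak were also counted. For 2573 peaks there was an annotated gene on either side. Both flanking genes were marked for 35.4% (33.6 to 37.3), 1 of them for 46.1% (44.2 to 48.0) and neither for 18.5% (17.0 to 20.0). Where the nearest gene was unmarked, the gene on the other side was marked in 501 of 976 cases, or 51.3% (48.2 to 54.5), with an interval above the 46.1% of all autosomal genes. The same share was not taken for windows outside peaks.

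Of the peaks, 58.7% (56.8 to 60.6) lay upstream of the nearest TSS, close to the 59.6% of windows outside peaks at the same distances. The interval of the peaks held the share of the windows. At 1 to 10 kb the values were 71.2% (68.8 to 73.6) for peaks and 75.5% for windows, and beyond 50 kb 51.8% (49.1 to 54.5) and 51.1%.

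The gene lists described next were pathways and cell types that bear on mESCs. Of all autosomal genes 7.86% were the nearest gene of such a peak, which is the background for each count. The lists are small, they were not tested, and a gene with wide intergenic flanks has more room for such a peak than one in a gene-dense stretch.

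**Figure D3:**
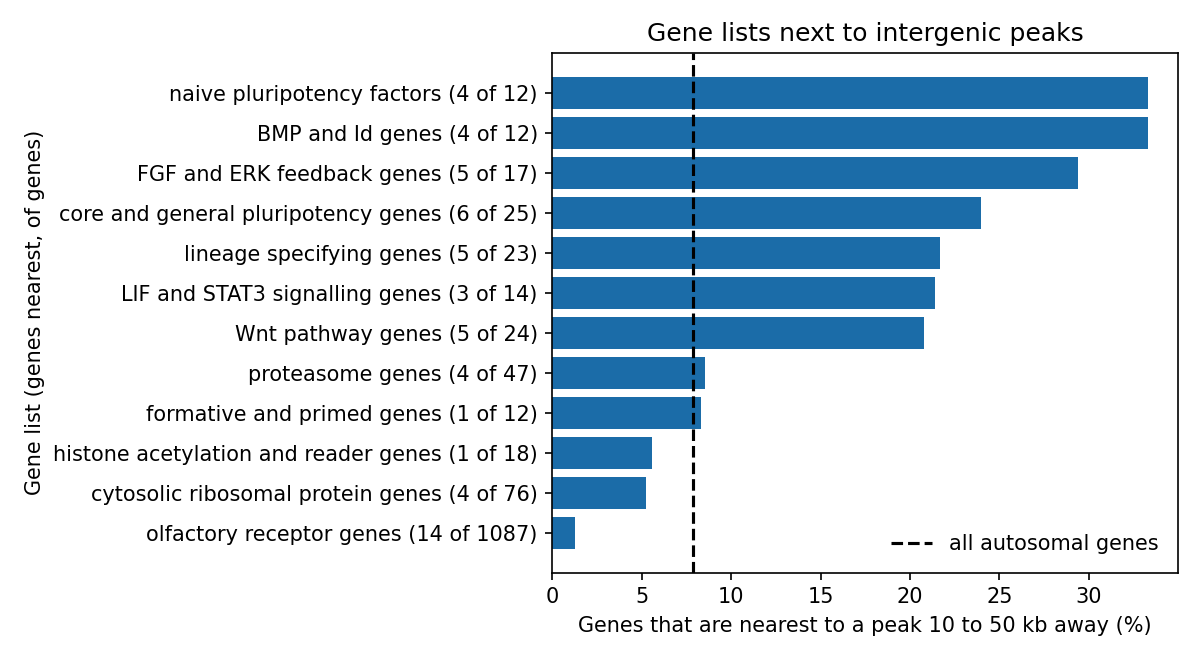
Share of the genes of each of 12 lists that are the nearest gene of a peak 10 to 50 kb from a TSS, in percent, with the number of genes beside each name. The dashed line is the 7.86% of all autosomal genes, the naive pluripotency list and the BMP and Id list (each 4 of 12) share the top, and the olfactory receptor list (14 of 1087) is at the bottom.

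Naive pluripotency factors, which hold mESCs in the ground state, were the nearest gene in 4 of 12 cases, with 7 peaks. The peak near Klf4, a zinc finger factor, was at chr4:55513183-55517718, 4536 bp wide, 14.1 kb downstream of its TSS and 30.6 kb from the next control peak, and the promoter of Klf4 was not marked in the list. Nr5a2, a nuclear receptor, had 3 peaks upstream, at 11.9, 23.5 and 42.0 kb. Tfap2c, a factor of the AP-2 family, had a peak of 3231 bp at 31.2 kb upstream and a peak of 7035 bp at 11.6 kb downstream. The latter held 10 KLF matches and 5 TFCP2L1 matches. Zfp42 (REX1), a marker of the naive state, had a single peak of 8102 bp at 44.6 kb upstream, of which 55.2% was repeat-masked.

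Core and general pluripotency genes were nearest in 6 of 25 cases. The peak near Fgf4, a growth factor of the early embryo, lay 10.2 kb downstream and was 2894 bp wide with a GC content of 54.1%. It had no ESRRB match. Jarid2, a cofactor of Polycomb repressive complex PRC2, had peaks at 48.4 and 40.2 kb upstream, of 9791 and 1742 bp. Tet2, a 5-methylcytosine dioxygenase, had one of 4797 bp at 42.2 kb upstream, and Myc had one of 3990 bp at 22.2 kb downstream. The promoters of these 4 genes were marked. Sall4, a zinc finger factor, had a peak at 22.1 kb upstream, and Dppa3, a maternal factor that protects DNA methylation, one at 17.2 kb downstream. Neither of these promoters was marked.

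Signalling genes were nearest as follows. Of 14 LIF and STAT3 genes 3 were, with 7 peaks, namely Lifr, a LIF receptor chain, Pim3, a kinase, and Socs3, the feedback inhibitor of JAK signalling. Of 17 FGF and ERK feedback genes 5 were (Dusp5, Egr1, Etv1, Spred2 and Spry1), of 24 Wnt pathway genes 5 were (Axin2, Sp5, Tcf7l1, Tcf7l2 and Znrf3) and of 12 BMP and Id genes 4 were (Bmp4, Id2, Id3 and Smad7). Axin2, a Wnt target and feedback inhibitor, was nearest to a peak of 89 bp at 26.5 kb, among the 3 narrowest. Sp5, another Wnt target, had peaks of 6453 bp at 16.9 kb and 2508 bp at 29.3 kb. All 17 of these genes except Axin2 and Dusp5 had a marked promoter. Over each whole list, nearest genes included, most genes did: 11 of 14 LIF and STAT3 genes and 16 of 17 FGF and ERK feedback genes. For Wnt pathway genes it was 13 of 24, and for BMP and Id genes 11 of 12.

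Lineage-specifying genes, most of them silent in mESCs, were nearest in 5 of 23 cases. The peaks near Gata6 and Gsc, at 10.5 and 11.1 kb upstream, had marked promoters beside them. Of 12 formative and primed genes 1 was nearest, Foxd3, with a peak of 6854 bp at 12.1 kb. Housekeeping lists were near the background: 4 of 76 cytosolic ribosomal protein genes, 4 of 47 proteasome genes and 1 of 18 histone acetylation and reader genes, the deacetylase gene Hdac2, with 3 peaks.

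Olfactory receptor genes, which are expressed in the nose, were nearest in 14 of 1087 cases (1.29%), with 17 peaks and no marked promoter among them. Their peaks varied widely in repeat content: 88.6% of the peak near Olfr126 was repeat-masked, 81.7% of that near Olfr743 and 4.96% of that near Olfr725.

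The genes with the most such peaks were Smad7, the inhibitor of TGF-beta and BMP signalling, with 6, and Cd2, a T-cell adhesion molecule, Prex1, an activator of the GTPase Rac, and Wnt11, a Wnt ligand, with 5 each. Several genes had 4, among them Socs3 and the lincRNA gene AV205837, which came first of these by symbol. Smad7, Cd2, Prex1, Wnt11 and AV205837 all had a marked promoter, beside 75.6% of the 86 genes with 3 or more peaks and 46.1% of all autosomal genes. Around Smad7 the peaks lay on both sides, from 32.3 kb upstream to 47.7 kb downstream, and were 1255 to 9797 bp wide. The widest of them held 12 KLF matches. Around Wnt11 they lay from 44976 bp upstream to 24130 bp downstream.

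Peaks also shared gaps between genes. The 2573 peaks with a gene on either side lay in 1891 gaps, of which 467 held 2 or more. The gap between Tha1 and Socs3, 92.6 kb long, held the most, 7. Of these, 3 were nearer to Tha1 at 13.9, 27.7 and 38.1 kb and 4 nearer to Socs3 at 12.6, 19.3, 22.2 and 31.1 kb. They ranged in width from 399 bp to 8864 bp. The peak at 31.1 kb from Socs3 was 8779 bp wide and held 10 KLF and 4 TFCP2L1 matches. None of the 4 peaks nearest to Socs3, a target of STAT3, held a match to the STAT motif TTCCNGGAA, which 10.9% of all 2578 peaks held over their whole width. This gap was singled out after its count had been seen.

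Another control peak of any kind lay within 5 kb of 23.6% (22.0 to 25.3) of the peaks and within 25 kb of 71% (69.2 to 72.7). Within the distance in between at which neighbouring peaks are by default stitched into super-enhancers in common software, called the stitching distance here, the share was 50.7% (48.8 to 52.6). At that distance it was 70.4% (68.0 to 72.8) for peaks at 1 to 10 kb and 27.7% (25.4 to 30.2) beyond 50 kb. Peaks inside genes stood at 52.5% (51.2 to 53.8) and promoter peaks at 44.1% (43.1 to 45.1). The rule sets how near to a promoter peak each intergenic class can lie. The order of the intergenic classes follows in part from that and is given as a description. The nearest other peak was at a promoter for 35.5% (33.7 to 37.4) and at the same distance range, at any width, for 39.9% (38.0 to 41.8). The authors merged peaks within 2 kb of each other, so no pair could lie closer.

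The sequence of the peaks was richer in G and C than windows outside peaks at the same distances from a TSS. The median GC content was 47.4%, with quartiles at 44.8 and 50.4%. It was 42.4% in these windows, 48.0% in peaks at 1 to 10 kb, 44.8% beyond 50 kb and 53.6% in promoter peaks. The quartile ranges of the peaks and the windows overlapped. Repeat-masked bases made up a median of 24.5% of a peak, with quartiles at 15.2 and 35.9%. The median was 25.2% in peaks at 1 to 10 kb, 28.1% beyond 50 kb, 12.1% in promoter peaks and 28.0% in the shorter windows. More than 50% of the sequence was repeat-masked in 9.39% (8.32 to 10.6) of the peaks. This was so for 9.01% (7.60 to 10.6) at 1 to 10 kb and 19.4% (17.4 to 21.6) beyond 50 kb.

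**Figure D4:**
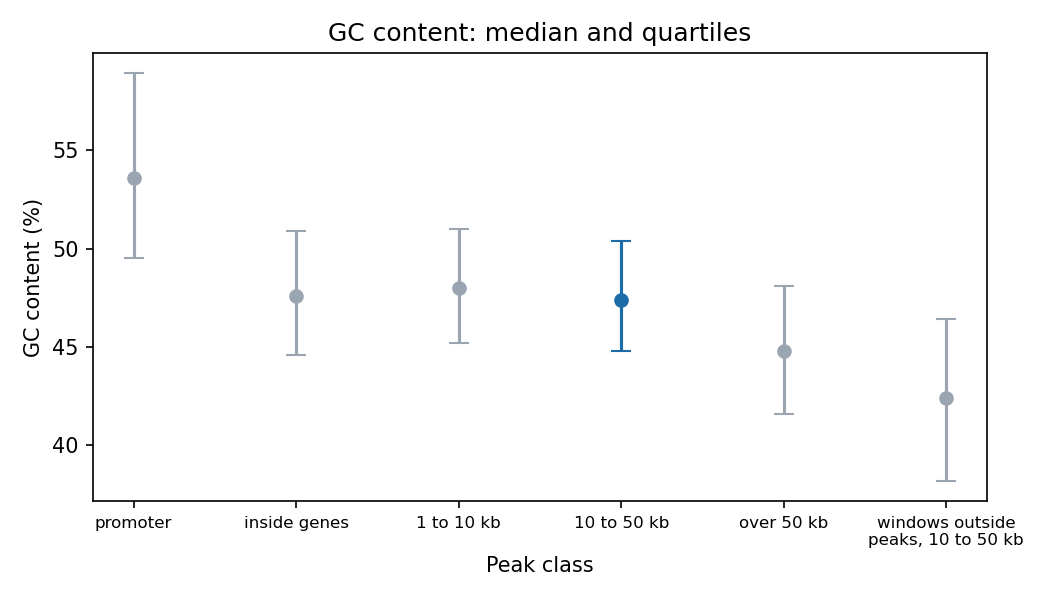
GC content in percent (vertical axis, not starting at 0) of peaks in 5 classes and of 500-bp windows outside peaks; points are medians and bars run from the lower to the upper quartile. The peaks at 10 to 50 kb have a median of 47.4%, between the windows at 42.4% and the promoter peaks at 53.6%.

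A few of the peaks looked like promoters in base composition. A middle was called CpG-rich when the central 500 bp had a GC content of at least 50% and an observed-to-expected CpG ratio of at least 0.6, a class added after the data had been seen. It held 82 of the 2578 peaks, 3.18% (2.57 to 3.93), against 51.6% of promoter peaks and 0.312% of windows outside peaks. The share was 4.65% (3.66 to 5.89) at 1 to 10 kb, 2.42% (2.04 to 2.86) inside genes and 2.27% (1.59 to 3.22) beyond 50 kb. A RefSeq transcript start lay inside 7.95% (6.97 to 9.06) of the 2578 peaks, 7.48% (6.21 to 8.99) at 1 to 10 kb and 4.99% (3.94 to 6.30) beyond 50 kb. Such a start lay inside 30.5% (21.6 to 41.1) of the CpG-rich peaks and inside 7.21% (6.26 to 8.29) of the others. Examples are the primary transcript of Mirlet7i, 12.8 kb from Mon2, Magef1, 35.3 kb from Gm16863, and the lncRNA genes AI506816, 25.5 kb from Srpk2, and 1700012D14Rik, 38.5 kb from Eif4g2. The class was defined by G, C and CpG content in the 500 bp that were searched for motifs, so the shares of GC-rich motifs follow in part from that choice and are given as a description. SP matches were found in 19.5% (12.4 to 29.4) of the CpG-rich peaks and 3.61% (2.94 to 4.41) of the others, NRF1 matches in 8.54% (4.20 to 16.6) and 0.280% (0.136 to 0.578), and ESRRB matches in 2.44% (0.671 to 8.46) and 7.29% (6.34 to 8.38).

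In GENCODE, 265 peaks, or 10.3% (9.17 to 11.5), overlapped a gene of a type the rule did not use. There were 76 peaks over antisense genes, 60 over genes annotated as processed transcripts and 50 over processed pseudogenes. The share was 6.73% for 500-bp windows outside peaks, which are shorter than most of the peaks, so the shares are not like for like. In RefSeq, 24.7% (23.0 to 26.4) of the peaks overlapped a gene of any type, against 15.6% of the windows, so the call intergenic depends on the annotation.

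RefSeq also lists enhancers with experimental evidence. Of 1006 on the autosomes 198 overlapped a control peak and 22 overlapped one of these peaks. The share of the peaks that overlapped one was 0.853% (0.564 to 1.29), against 0.0971% of the shorter windows at the same distances, 0.890% (0.674 to 1.18) of peaks inside genes, 0.508% (0.246 to 1.05) at 1 to 10 kb and 0.605% (0.307 to 1.19) beyond 50 kb, so the intervals of these classes of peaks overlapped. Promoter peaks were lower, at 0.306% (0.215 to 0.434). Most of the 22 come from the VISTA reporter collection and were named for activity in tissues of the embryo. The peak at 44.2 kb from the lincRNA gene Gm16063 held the eB element, which acts on Tbx3 in the heart. The peak at 33.6 kb from 4930511J24Rik, one of the first in the list, held an element active in the neural tube and brain. The peak at 16.9 kb from Dynll2 held the Sifnos element, tested in olfactory sensory neurons. A match in place says nothing of activity in mESCs.

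Motifs were searched for as exact letters, on both strands, in the 500 bp around the midpoint of each peak, for 16 motifs. The list gives no summit, so the bound site can lie outside these 500 bp. N stands for any base. The motifs were the OCT-SOX composite (above), the octamer ATGCAAAT, SOX (AACAATG), KLF (GGGNGTGG), ESRRB (CAAGGTCA), TFCP2L1 (CCAG, a spacer of 6 bases and a second CCAG), STAT (TTCCNGGAA), TCF/LEF (ATCAAAG), TEAD (ACATTCCA), AP-1 (TGANTCA), CTCF by a shortened core, the E-box CACGTG, SP (GGGGCGGGG), NRF1 by its palindrome, ETS (CCGGAAGT) and CRE (TGACGTCA). Matches can overlap one another, such as KLF with SP in GC-rich sequence or the composite with the octamer. All promoters, other peaks and windows were searched at the same length.

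Matches to the ESRRB motif were found in 7.14% (6.21 to 8.20) of the peaks, 2.85% of windows outside peaks at the same distances and 3.55% of promoter peaks. The share was 6.94% (6.30 to 7.64) in peaks inside genes, 6.25% (5.09 to 7.65) in intergenic peaks at 1 to 10 kb and 9.75% (8.27 to 11.5) beyond 50 kb, so it was not particular to the peaks at 10 to 50 kb. Over windows of like GC content the peak-to-window ratio was 2.56 at 40 to 45% GC, 2.47 at 45 to 50% and 1.68 at 50 to 55%, beside 2.51 over all. Counting only matches outside repeat-masked sequence, the shares were 3.92% (3.23 to 4.74) and 1.91%, a ratio of 2.05.

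Matches to the KLF motif were found in 24.5% (22.9 to 26.2) of the peaks, 11.7% of windows and 25.8% of promoter peaks. It was 25.3% in peaks inside genes, 26.6% in intergenic peaks at 1 to 10 kb and 20.6% beyond 50 kb. The ratio of 2.10 was 1.28, 1.34 and 1.5 in the same 3 GC ranges, and was 2.71 outside repeats. TFCP2L1 matches were found in 7.87% (6.90 to 8.98) of the peaks and 3.82% of windows, a ratio of 2.06 that was 1.21, 1.29 and 1.08 within the GC ranges. For both, the difference over all windows was therefore larger than that between sequences of like GC content. STAT matches were found in 2.60% (2.05 to 3.29) against 1.36%, with ratios of 0.878, 1.86 and 2.13 within the ranges.

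**Figure D5:**
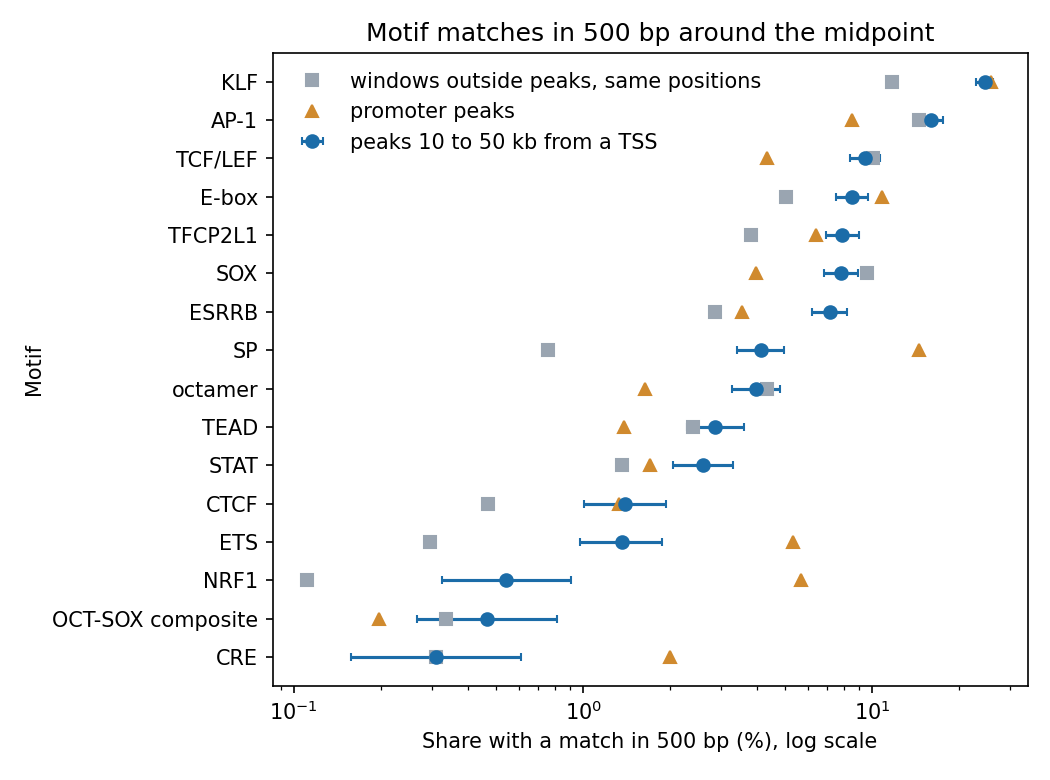
Share of sequences with at least 1 exact match in 500 bp (horizontal axis, percent on a log scale) for each of 16 motifs: the peaks at 10 to 50 kb in blue with 95% Wilson intervals, windows outside peaks at the same distances as grey squares, and promoter peaks as orange triangles. The peaks lie above the windows for ESRRB (7.14% and 2.85%) and about level with them for the octamer (3.96% and 4.34%).

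Of the 16 motifs, 13 had a peak-to-window ratio above 1 and 9 a ratio above 1.5, and at 45 to 50% GC 6 of the 16 had a ratio above 1.5. Among motifs common in promoters, SP, ETS and NRF1 matches were rarer than in promoter peaks and, over all windows, above them, whereas CRE matches, at 2.00% in promoter peaks, stood level with the windows. SP matches stood at 4.11% (3.41 to 4.95) against 0.757% in windows, ETS matches at 1.36% (0.978 to 1.88) against 0.296% and NRF1 matches at 0.543% (0.324 to 0.910) against 0.111%. CTCF matches stood at 1.4% (1.01 to 1.93) against 0.470%, and E-box matches at 8.53% (7.52 to 9.67) against 5.04%. In the 3 GC ranges, from low to high, the ratio was 2.37, 2.24 and 2.32 for SP, 3.54, 2.30 and 3.38 for ETS, 1.28, 1.66 and 1.5 for CTCF and 1.19, 1.45 and 1.48 for the E-box. For NRF1, no peak whose central 500 bp had a GC content of 40 to 50% had a match there, against 0.0795% of windows at 40 to 45% and 0.176% at 45 to 50%, and the ratio at 50 to 55% was 2.97.

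The sites of the core pluripotency factors were not more frequent in the peaks than in all windows beyond counting error, and how they compared depended on GC content and repeats. The octamer was found in 3.96% (3.27 to 4.78) of the peaks and 4.34% of windows, SOX in 7.80% (6.82 to 8.90) and 9.62%, and the OCT-SOX composite in 0.465% (0.266 to 0.812) and 0.337%. The SOX share lay below that of the windows, which its interval did not hold, while the intervals of the other 2 held it. In the 3 GC ranges, from low to high, the ratio was 0.951, 1.60 and 1.89 for the octamer, 0.797, 1.37 and 1.12 for SOX, and 0.962, 1.32 and 3.58 for the composite, which rests on 12 peaks in all. Outside repeats the octamer was found in 2.79% (2.22 to 3.50) of the peaks and 2.03% of windows, SOX in 6.40% (5.52 to 7.41) and 6.17%, and the composite in 0.233% (0.107 to 0.507) and 0.165%. TCF/LEF matches were found in 9.43% (8.36 to 10.6) and 10.1%, AP-1 matches in 16.0% (14.7 to 17.5) and 14.5%, TEAD matches in 2.87% (2.29 to 3.59) and 2.40%, and CRE matches in 0.310% (0.157 to 0.611) and 0.309%. In the 3 GC ranges the ratio was 1.15, 1.14 and 1.91 for TCF/LEF, 0.952, 1.22 and 1.21 for AP-1, 1.38, 1.14 and 1.5 for TEAD, and 0.757, 0.733 and 0.538 for CRE. A match is a stretch of letters and not a bound site, and a window without one says nothing of the factor.

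Earlier peaks in the list also had a close neighbour more often than later ones. Of the first 645 in list order 373 had another control peak within the stitching distance, or 57.8% (54.0 to 61.6), and of the last 644 there were 290 (41.2 to 48.9%). The nearest gene was marked for 65.1% (61.4 to 68.7) of the first and 59.0% (55.2 to 62.7) of the last, with overlapping intervals. ESRRB matches were found in 6.36% (4.72 to 8.51) and 7.14% (5.40 to 9.40), with overlapping intervals.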

How the data were processed

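H3K27ac ChIP-seq was made in mESCs under DMSO, NVP-2 or ActD. According to the methods, the authors trimmed reads with Cutadapt, aligned them with bwa meme to mouse (mm10) and human genomes, removed duplicates and poorly mapped reads with Picard and SAMtools (versions 2.9.1 and 1.4 in the submitters' processing notes), called peaks with LanceOtron, merged those within 2 kb and filtered them by height and by nearness to ATAC-seq summits. The deposited file holds 1 list for both control samples, with the chromosome, start and end of each peak in base pairs and no count, signal or p-value. The list gives no depth, and the read totals of the libraries in the paper's reporting summary were not used here.

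Positions were compared with GENCODE release M21 (GRCm38), older than the release the paper names, with the RefSeq GRCm38 annotation and with the genome sequence. Any transcript of a protein-coding or lincRNA gene gave a TSS. Windows of 500 bp outside all peaks, classed by the same distance rule, were the comparison. No test was run, because 1 pooled list has no replicates. Shares have 95% Wilson intervals.

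The peaks, gene lists and motifs were chosen with earlier results of these data known. Named genes are the nearest genes of the 5 widest peaks, the 5 first in the list and the peaks beside each limit, 5 genes with the most peaks (ties broken by symbol), and genes of the lists. The planned rule for printing sequences, peaks next to pluripotency genes with an OCT-SOX composite or octamer match, found none, so the printed ones were chosen after the matches were seen. The GC ranges, the CpG-rich class, RefSeq starts and enhancers, repeat masking of matches and a narrower pattern for ribosomal protein genes were also added after seeing the data. On simulated data 1200 of 1200 peaks got their true class, distance and nearest gene. Tables were computed in Python 3.11.15 with scipy 1.17.1, pandas 2.3.3 and numpy 2.4.6, and figures drawn with matplotlib 3.10.9.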

Additional observations from a re-analysis of the deposited data

How the results depend on the processing

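With 1 pooled list no replicate could be left out. No paired analysis was possible because the deposited list pools both control samples and the treated samples were not analysed here. A value counted as moved when it left the interval of the reported one, or for counts when it changed by more than 1.5 times. Of 129 values under alternatives 60 did not move and 69 did. The number of peaks was 2126 to 2798 under its alternatives. The share next to a marked promoter was 58.0% with the longest isoform only, 74.0% with protein-coding genes only and 59.4% with each gene counted 1 time. The median GC content was 48.0% in the central 500 bp and 47.0% for peaks of at least 1 kb. Another peak lay within 5 kb of 23.6%, within 25 kb of 71%, and, measured between midpoints, within the stitching distance of 37.9%. The density was 7.97 per Mb with protein-coding genes only and 6.85 with distance from the midpoint. The share upstream was 62.7% with protein-coding genes only and 64.5% with the longest isoform. The overlap with other genes was 6.01% when 50% of the peak had to be covered. In windows of 300 bp the shares with a match that left the interval of the 500-bp value were octamer 2.33%, SOX 4.97%, KLF 15.2%, ESRRB 4.58%, TFCP2L1 4.62%, STAT 1.44%, TCF/LEF 5.86%, TEAD 1.78%, AP-1 9.78%, CTCF 1.01%, E-box 5.04%, SP 2.29% and ETS 0.892%. In windows of 1000 bp they were OCT-SOX composite 0.892%, octamer 7.49%, SOX 14.7%, KLF 42.1%, ESRRB 12.6%, TFCP2L1 14.2%, STAT 5.08%, TCF/LEF 16.7%, TEAD 5.51%, AP-1 29.7%, CTCF 2.87%, E-box 16.3%, SP 6.94%, NRF1 1.32%, ETS 2.37% and CRE 0.815%. Over the whole peak they were OCT-SOX composite 2.13%, octamer 16.1%, SOX 30.2%, KLF 62.6%, ESRRB 25.6%, TFCP2L1 29.0%, STAT 10.9%, TCF/LEF 34.9%, TEAD 13.9%, AP-1 53.1%, CTCF 5.59%, E-box 31.7%, SP 13.9%, NRF1 2.17%, ETS 4.81% and CRE 2.02%. With matches outside repeat-masked sequence only, an alternative chosen after seeing the data, they were OCT-SOX composite 0.233%, octamer 2.79%, SOX 6.40%, KLF 12.2%, ESRRB 3.92%, TFCP2L1 5.86%, TCF/LEF 6.63%, TEAD 2.21%, AP-1 12% (11.3 to 13.8), E-box 6.63% and SP 2.29%. Peaks of at least 1 kb and midpoint distances moved no motif share. Shares rise with the length searched, so the windows compared in the report had 1 length throughout. The list has no heights, so weak and strong peaks count alike, and no value here says how the mark changed under NVP-2 or ActD.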
